A study of Mus musculus with 4 samples.

Results

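A set of 40 genes for chemokines and other NF-κB inflammatory products was followed across 4 RNA-seq libraries of NMuMG, a mouse cell line of epithelial origin derived from healthy mammary tissue. The 40 genes were chosen by symbol, and 39 of them have a row among the 21971 genes of the count table, while Il1b was not analysed here. Earlier results of these data were known when the set was chosen. Shares of members beside shares of all genes are therefore descriptions and no independent test. Both lines studied stably overexpress a mutated human TRF1, TRF1ΔN, a protein of the telomere. In the TRF1ΔN line the protein stands alone, and in the Vp16-TRF1ΔN line it is fused to the Vp16 transcription activation domain, which the design uses to raise RNA resembling TERRA, the long non-coding RNA transcribed from telomeres. Each line gave 1 library at 0 h without TGFβ and 1 library after 24 h with TGFβ at 5 ng/ml, a treatment that induces epithelial-to-mesenchymal transition (EMT). No library of cells without a TRF1 construct and no library at 24 h without TGFβ is analysed here, so time in culture and TGFβ cannot be told apart. The labels do not say whether a line is 1 clone or a pool, nor whether the libraries came from separate cultures. The series asks how the raised telomeric RNA alters the EMT expression signature, and the same question is put here to the inflammatory genes.

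NF-κB is a family of dimeric transcription factors that inhibitor proteins hold in the cytoplasm until signals from receptors of bacterial products, TNF or IL-1 have the inhibitors degraded. Its targets include chemokines, which recruit leukocytes, adhesion molecules, acute-phase proteins, and genes of its own inhibitors, which close a feedback loop. Epithelial cells, those of the mammary gland included, make many of these products themselves, and TGFβ is known both to dampen and to cooperate with NF-κB depending on the cell.

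The libraries held 45983910, 43354144, 41953130 and 35418985 gene counts in the order TRF1ΔN at 0 h, TRF1ΔN at 24 h, Vp16-TRF1ΔN at 0 h and Vp16-TRF1ΔN at 24 h, which is the order of all lists of values below. Levels are CPM, counts scaled to library size with trimmed-mean (TMM) factors. The row for the Vp16 domain held 0, 1, 15 and 27 counts and the row for TRF1ΔN 1863, 7798, 123 and 159, so the Vp16 row was at most 1 count in the TRF1ΔN line, and the TRF1ΔN row was far higher in that line than in the Vp16-TRF1ΔN line and higher at 24 h than at 0 h within it. Construct level thus differed between the lines along with the Vp16 domain, and the 2 cannot be told apart in any comparison of the lines. Transcripts of the mitochondrial genome took between 10.15% and 15.67% of the counts, more at 24 h in both lines. The epithelial label was checked against its markers. Cdh1, which encodes E-cadherin, had 17416, 4515, 15872 and 5680 counts and fell by 1.46 ± 0.16 in log2 (adjusted p = 0.00398, edgeR's quasi-likelihood test with Benjamini-Hochberg adjustment). The 5 epithelial markers with a row, of 6 listed, summed to between 6095 and 6384 CPM, led by the keratins Krt8 and Krt18 after TGFβ, while Epcam had at most 18 counts. Of 11 immune markers 6 had a row, and their sum lay between 3.67 and 5.44 CPM. Cd68, a lysosomal gene also found outside macrophages, led them with 150, 123, 133 and 110 counts, and the pan-leukocyte gene Ptprc had 7, 1, 6 and 1. The macrophage receptor Csf1r, another of the 6, rose, with 1, 101, 2 and 21 counts. The 4 endothelial markers of 5 with a row summed to 9, 58, 9 and 31 counts, of which Cdh5 had 4, 50, 5 and 24 and rose, while Pecam1 had at most 3. The 4 basal mammary markers summed to 55.4, 3.82, 30.7 and 2.31 CPM, lower after TGFβ and lower in the Vp16-TRF1ΔN line at each time. Most of that sum at 0 h was the keratin Krt6a, with 2480, 30, 1220 and 11 counts, and Krt6a and Krt5 fell. The 4 fibroblast markers of 6 with a row summed to 1.32, 26.3, 1.90 and 12.8 CPM, with Col1a1 rising and Dcn at 2, 0, 2 and 0 counts. Fibroblast and basal markers, Csf1r, Cdh5, E-cadherin and the mitochondrial share thus moved with TGFβ, and their part in the results that follow was not tested. In bulk RNA, fewer cells that express a gene and less of its RNA per cell cannot be told apart.

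TGFβ was accompanied by opposite movements within the set. On average over the lines, C3, Saa3, Lcn2, Ccl20, Cxcl5, Tnfaip2, Icam1, Vcam1, Cd14, Tlr4, Cx3cl1 and Csf3 fell, and Ptgs2, Cxcl12, Csf1, Csf2, Il6, Ccl7, Tnfaip3, Relt, Tlr2, Rela and Nfkb1 rose. Of the 38 members tested, 11 rose, 12 fell and 15 did not pass the threshold. The share of members that passed was 60.5%, and among all 14305 genes tested it was 48.5%, with 23.1% higher and 25.4% lower. The median change of the members was -0.11 on the log2 scale, beside -0.0085 over all genes tested. Line and TGFβ entered edgeR's quasi-likelihood test as additive terms, with Benjamini-Hochberg adjustment and a threshold of 0.05. Unequal responses in the lines are the only residual of this fit, so a gene that responded unequally carries a large error.

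**Figure D1:**
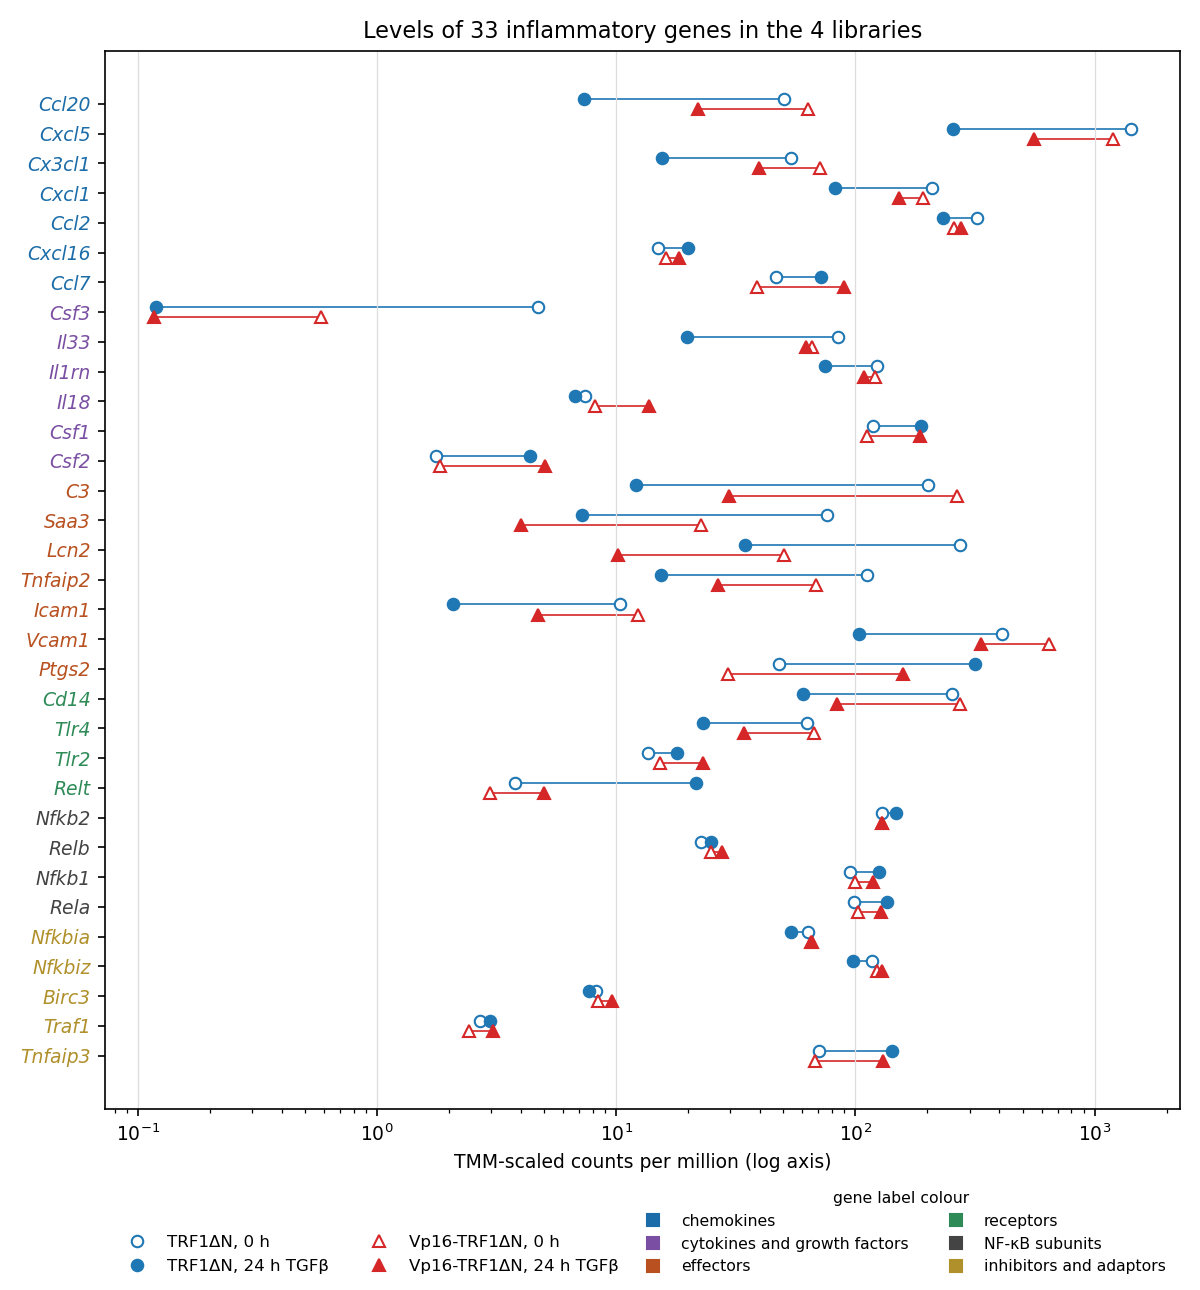
Level in TMM-scaled CPM (log axis) of the 33 members whose mean reached 1 CPM, 1 row per gene, with gene names coloured by role. Open symbols are 0 h libraries and filled symbols 24 h libraries with TGFβ, circles the TRF1ΔN line and triangles the Vp16-TRF1ΔN line, 1 library per symbol, with lines joining the time points of a line. The acute-phase and adhesion genes move left over wide distances, Ptgs2 and Tnfaip3 move right, and the rows of the NF-κB subunits stay narrow.

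Within a line there is 1 library per time point and no test. A member was counted as different between a pair of libraries when all of these held: a ratio of 2-fold or more, a mean level of 1 CPM or more, and a 95% counting interval clear of 1. This interval covers counting error only. The 6 members with a row below that level on average were Cxcl2, Cxcl10, Cxcl12, Tnf, Il1a and Il6. Csf3, at 4.72, 0.119, 0.58 and 0.117 CPM, reached it only through the untreated TRF1ΔN library. Wherever Csf3 is counted against that library below, the direction was thus partly set by the filter. Of the 33 members whose mean reached 1 CPM, 14 were lower after TGFβ in the TRF1ΔN line (42.4%, beside 10.9% of 11777 genes) and 4 were higher (12.1%, beside 8.4%). In the Vp16-TRF1ΔN line 9 were lower (27.3%, beside 9.09% of genes) and 3 were higher (9.09%, beside 6.92%).

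By summed CPM, chemokines were the most abundant role in the set at 0 h and at 24 h. Their 10 genes summed to 2117 CPM in untreated TRF1ΔN cells and 688 CPM after TGFβ, or 32.5% of the starting level, while in the Vp16-TRF1ΔN line the sum went from 1833 to 1158 CPM, or 63.2%. Cxcl5, a neutrophil attractant acting on the receptor CXCR2, accounted for 67.0% of the chemokine sum in untreated TRF1ΔN cells and 37.2% after TGFβ. Its share was 65.0% and 48.1% in the Vp16-TRF1ΔN line. Per kb of annotated exon, Cxcl5 was also the highest of the set in untreated TRF1ΔN cells, at 761 CPM per kb, followed by Ccl2 at 284, Cd14 at 146, Cxcl1 at 112 and Lcn2 at 104. These orders rest on single libraries, so neighbours such as Cxcl1 and Lcn2 are not separated from replicate spread. Traf1 was the lowest of the 33 at 0.305 CPM per kb.

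Cxcl5 (ENSMUSG00000029371, GRCm38 chr5:90759360-90761624) had 1418, 256, 1192 and 557 CPM. Both 0 h libraries lay above both 24 h libraries, and the treated TRF1ΔN library was the lowest. It fell by 1.78 ± 0.35 in log2 (adjusted p = 0.0163, edgeR), 5.54-fold in the TRF1ΔN pair and 2.14-fold in the Vp16-TRF1ΔN pair. On the same stretch of chromosome 5 lie Cxcl1 (chr5:90891241-90893115) and Cxcl2 (chr5:90903871-90905938), close relatives that signal through the same receptor. Cxcl1 had 210, 82.4, 191 and 152 CPM, and its change of -0.84 ± 0.26 did not pass with edgeR (adjusted p = 0.0535) and passed with DESeq2 (adjusted p = 0.00112). The treated TRF1ΔN library stood apart, 2.54-fold below its 0 h library against 1.26-fold in the other line. Cxcl2 was scarce, at 23, 11, 47 and 16 counts, with a change of -1.08 ± 0.32 (adjusted p = 0.0517, edgeR).

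Ccl20, the ligand of CCR6 that draws dendritic cells and lymphocytes to epithelia, had 50.3, 7.32, 63.4 and 21.9 CPM. Both treated libraries lay below both untreated ones, and the fall was 2.12 ± 0.32 in log2 (adjusted p = 0.00771, edgeR). The membrane-bound chemokine Cx3cl1 had 53.7, 15.5, 71.1 and 39.7 CPM and fell by 1.31 ± 0.24 (adjusted p = 0.0139, edgeR). Its libraries were ordered like those of Ccl20.

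The monocyte attractants Ccl2 and Ccl7 are neighbours on chromosome 11 (chr11:82035571-82037453 and chr11:82045712-82047525). Ccl2 had 323, 232, 258 and 276 CPM, with overlapping time points and a change of -0.19 ± 0.15 that did not pass (adjusted p = 0.358, edgeR). Ccl7 had 46.5, 71.6, 38.7 and 89.8 CPM, higher in both treated libraries, and rose by 0.92 ± 0.16 (adjusted p = 0.0111, edgeR). The difference between the changes of these 2 genes was not tested.

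Cxcl12, a chemokine typical of stromal cells, had 5, 73, 5 and 53 counts. It rose by 3.86 ± 0.34 in log2 (adjusted p = 0.00253, edgeR), 16.5-fold in the TRF1ΔN pair (95% counting interval 6.77 to 52.4) and 13.3-fold in the other (5.37 to 42.7), from a level close to the detection floor. Cxcl16 ranged from 14.9 to 19.9 CPM and Cxcl10, an interferon-induced chemokine, had at most 55 counts, and neither passed (adjusted p = 0.0677 and 0.911, edgeR).

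Of the 7 effectors of innate immunity, adhesion and inflammation, 6 fell and Ptgs2 rose. Complement component C3 had 202, 12.1, 267 and 29.5 CPM. It fell by 3.61 ± 0.24 in log2 (adjusted p = 0.00143, edgeR), 16.7-fold in the TRF1ΔN pair and 9.05-fold in the Vp16-TRF1ΔN pair. The acute-phase protein gene Saa3 had 76.3, 7.198, 22.6 and 3.998 CPM and fell by 3.01 ± 0.24 (adjusted p = 0.00202, edgeR). Lcn2, whose product binds bacterial siderophores, had 273, 34.4, 50.3 and 10.2 CPM and fell by 2.67 ± 0.19 (adjusted p = 0.00158, edgeR). For both genes the Vp16-TRF1ΔN libraries were the lower at each time. Saa3 and Lcn2 thus differ from C3, whose Vp16-TRF1ΔN libraries were the higher at each time.

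The set holds 2 adhesion molecules for leukocytes, and both fell. Vcam1 had 411, 103, 646 and 335 CPM and fell by 1.47 ± 0.27 (adjusted p = 0.0132, edgeR). Icam1 had 10.3, 2.07, 12.3 and 4.70 CPM and fell by 1.83 ± 0.26 (adjusted p = 0.00677, edgeR). In both genes the treated TRF1ΔN library was the lowest of the 4. Selp, which encodes the leukocyte-binding P-selectin and is not in the set, was singled out after its values were seen: it rose by 2.78 ± 0.55 (adjusted p = 0.0167, edgeR), with 4, 66, 16 and 49 counts. For Vcam1, Icam1, Tnfaip2 and Csf2, an annotated gene on the opposite strand shares exon sequence, and its reads cannot be told apart here. Tnfaip2, a TNF-induced gene, had 112, 15.4, 68.6 and 26.7 CPM and fell by 2.11 ± 0.38 (adjusted p = 0.0130, edgeR).

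Ptgs2 encodes the inducible cyclooxygenase, which starts prostaglandin synthesis. It had 47.7, 316, 29.4 and 158 CPM, with both treated libraries above both untreated ones. The rise was 2.58 ± 0.10 in log2 (adjusted p = 0.000858, edgeR), 6.62-fold in the TRF1ΔN pair and 5.38-fold in the other.

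Among the receptors, the lipopolysaccharide receptor and its co-receptor fell together. Cd14, which hands lipopolysaccharide to Tlr4, had 253, 60.3, 274 and 83.8 CPM and fell by 1.89 ± 0.11 (adjusted p = 0.0012, edgeR). Tlr4 had 62.9, 23.0, 66.9 and 34.3 CPM and fell by 1.21 ± 0.14 (adjusted p = 0.00412, edgeR). The receptor of bacterial lipoproteins, Tlr2, had 13.6, 18.0, 15.3 and 23.0 CPM and rose by 0.50 ± 0.10 (adjusted p = 0.0157, edgeR), a call that DESeq2 did not make (adjusted p = 0.0561). Relt, a receptor of the TNF receptor superfamily, had 3.78, 21.5, 2.97 and 4.99 CPM, where the treated TRF1ΔN library stood above the other three. Its rise of 1.72 ± 0.45 (adjusted p = 0.0351, edgeR) was 5.69-fold in the TRF1ΔN pair and 1.68-fold in the other.

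Secreted cytokines and growth factors split by gene. Csf1, the macrophage growth factor, had 119, 188, 111 and 186 CPM and rose by 0.70 ± 0.06 (adjusted p = 0.00275, edgeR). Csf2, which encodes GM-CSF, had 84, 183, 79 and 173 counts and rose by 1.38 ± 0.18 (adjusted p = 0.00547, edgeR). The libraries of each time were nearly level in the lines for these 2 genes. Csf3, which encodes the granulocyte factor G-CSF, had 225, 5, 25 and 4 counts. It fell by 4.41 ± 0.64 (adjusted p = 0.00734, edgeR), 39.8-fold in the TRF1ΔN pair (16.8 to 124) and 4.97-fold in the other (1.72 to 19.7), and only the untreated TRF1ΔN library held more than 25 counts.

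Il33, an alarmin held in epithelial nuclei, had 84.5, 19.7, 65.9 and 62.0 CPM. Its TGFβ change was 4.29-fold lower in the TRF1ΔN pair and 1.06-fold lower in the other, and the average change of -1.08 ± 0.51 did not pass (adjusted p = 0.148, edgeR). Il18, a relative of the IL-1 cytokines, had 7.39, 6.72, 8.12 and 13.7 CPM and did not pass (adjusted p = 0.328, edgeR). Il1rn, the antagonist of the IL-1 receptor, had 123, 74.3, 121 and 108 CPM, and its change of -0.44 ± 0.15 passed with DESeq2 (adjusted p = 0.0403) and did not with edgeR (adjusted p = 0.073). Il6 rose by 1.958 ± 0.36 (adjusted p = 0.0134, edgeR) from 16, 53, 3 and 11 counts, and DESeq2 did not call it (adjusted p = 0.143). Tnf had 16, 3, 18 and 10 counts and did not pass, and Il1a had 0, 2, 1 and 2 counts and was not tested. Tnf and Il1a, classical inducers of NF-κB, were thus scarce in all 4 libraries.

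At the RNA level the subunits of the transcription factor changed little in size, and its activity was not measured. The subunits Nfkb1 and Rela, which form the canonical dimer, rose by 0.32 ± 0.07 (adjusted p = 0.0227) and 0.39 ± 0.07 (adjusted p = 0.0127) with edgeR, and DESeq2 did not call Nfkb1 (adjusted p = 0.0601). Rela had 98.8, 135, 103 and 128 CPM, higher in both treated libraries. Nfkb2 and Relb of the non-canonical dimer did not pass (adjusted p = 0.357 and 0.182, edgeR). The 4 subunits summed to 346, 433, 356 and 403 CPM.

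Of the inhibitors and adaptors, Tnfaip3, which encodes the ubiquitin-editing inhibitor A20, rose by 0.97 ± 0.06 (adjusted p = 0.00145, edgeR), with 70.4, 142, 67.9 and 130 CPM and no overlap of the times. Nfkbia, which encodes IκBα, had 63.3, 53.6, 65.1 and 65.9 CPM and did not pass (adjusted p = 0.348, edgeR). Nfkbiz, an atypical nuclear IκB protein, had 117, 97.2, 124 and 129 CPM and did not pass either (adjusted p = 0.429, edgeR). The survival factor Birc3 and the adaptor Traf1 lay between 7.67 and 9.63 CPM and between 2.41 and 3.06 CPM and did not pass (adjusted p = 0.785 and 0.333, edgeR).

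Other genes of the pathway were taken from lists outside the set, and their counts stand beside the 48.5% of all genes tested that passed, 23.1% higher and 25.4% lower. Of 32 tested genes of NF-κB signalling machinery 8 rose and 9 fell, close to that background, with a median change of 0.08 in log2. Cd40, a TNF receptor family member that activates NF-κB, had 2, 311, 7 and 114 counts, a ratio of 176 in the TRF1ΔN pair (48.3 to 1460) and 20.5 in the other (9.63 to 52.1). Il1rl1, the receptor of IL-33, rose by 1.97 ± 0.20 (adjusted p = 0.00329, edgeR), and its partner Il1rap by 1.08 ± 0.12. The adaptor Traf5 fell by 0.88 ± 0.20 (adjusted p = 0.0229, edgeR), Tlr1 by 0.68 ± 0.14 and Tlr3 by 0.67 ± 0.12.

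Of 17 tested inhibitors and feedback regulators outside the set 1 rose and 5 fell, a smaller share than among all genes, with a median of -0.05. Tnip2, a partner of A20, rose by 1.12 ± 0.15 (adjusted p = 0.00576, edgeR), and the inhibitory receptor Sigirr fell by 1.09 ± 0.11, Socs3 by 0.92 ± 0.07 and Bcl3 by 0.60 ± 0.13. Of 29 further target genes 10 rose and 12 fell, a larger share than among all genes, with a median of -0.13. The gelatinase gene Mmp9 went from 1 count to 194 in the TRF1ΔN line and from 1 to 48 in the other, ratios of 219.6 (38.9 to 8716) and 60.4 (10.3 to 2434). Lif rose by 2.12 ± 0.30 and Ripk2 by 1.20 ± 0.09, while Pglyrp1 had 134, 3, 124 and 0 counts, at least 32.9-fold lower in the Vp16-TRF1ΔN pair against a floor of 3 counts. Haptoglobin, Hp, fell by 4.72 ± 0.29 and complement factor Cfb by 3.23 ± 0.33, with adjusted p = 0.0013 and 0.00321 with edgeR. Both belong to the acute-phase and complement genes, like C3, Saa3 and Lcn2.

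Of 11 other chemokine genes tested 2 rose and 2 fell, a smaller share than among all genes, with a median of -0.05. Among those above 1 CPM on average, Ccl8 rose by 1.25 ± 0.25 and Ccl9 fell by 1.01 ± 0.17. Most receptors that would read these ligands were scarce: Cxcr2, the receptor of Cxcl1, Cxcl2 and Cxcl5, had 4, 0, 2 and 0 counts and Ccr2, the receptor of Ccl2 and Ccl7, had 1, 0, 0 and 2. The exception was Ackr3, a scavenging receptor of CXCL12, with 1568, 2907, 1103 and 1882 counts and a rise of 1.09 ± 0.07 (adjusted p = 0.00138, edgeR). Csf1r, the receptor of CSF1 that rose among the immune markers, had at most 101 counts.

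Before TGFβ the lines were close in most of the set. At 0 h, 3 of 33 members were at least 2-fold lower in Vp16-TRF1ΔN cells (9.09%, beside 0.416% of 11777 genes) and 0 were higher (beside 0.178%). The 3 were Lcn2, 5.44-fold lower (95% counting interval 5.19 to 5.69), Csf3, 8.14-fold lower (5.38 to 12.9), and Saa3, 3.37-fold lower (3.14 to 3.63). Csf3 passed the level filter only through the untreated TRF1ΔN library, so its count here is not independent of that filter. Lcn2 and Saa3 are antibacterial and acute-phase products, and Csf3 drives neutrophil production. Ptgs2 and Tnfaip2 were 1.62-fold and 1.63-fold lower and Vcam1 1.57-fold higher. The basal marker Krt6a was 1.84-fold lower beside them, and its part in these differences was not tested. Whether these differences exceed the spread between replicate cultures cannot be read from 1 library each.

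After TGFβ the lines stood further apart. At 24 h, 8 of 33 members were at least 2-fold higher in Vp16-TRF1ΔN cells (24.2%, beside 2.11% of genes) and 2 lower (6.06%, beside 1.18%). Vcam1 was 3.25-fold higher (3.14 to 3.37), Il33 3.15-fold (2.90 to 3.41), Ccl20 2.99-fold (2.62 to 3.43) and Cx3cl1 2.56-fold (2.33 to 2.82). C3 was 2.44-fold higher (2.19 to 2.72), Icam1 2.27-fold (1.74 to 2.99), Cxcl5 2.18-fold (2.13 to 2.23) and Il18 2.04-fold (1.76 to 2.37). Relt was 4.31-fold lower (3.66 to 5.10) and Lcn2 3.37-fold lower (2.997 to 3.80). Ptgs2 lay just short of the count at 1.997-fold lower.

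**Figure D2:**
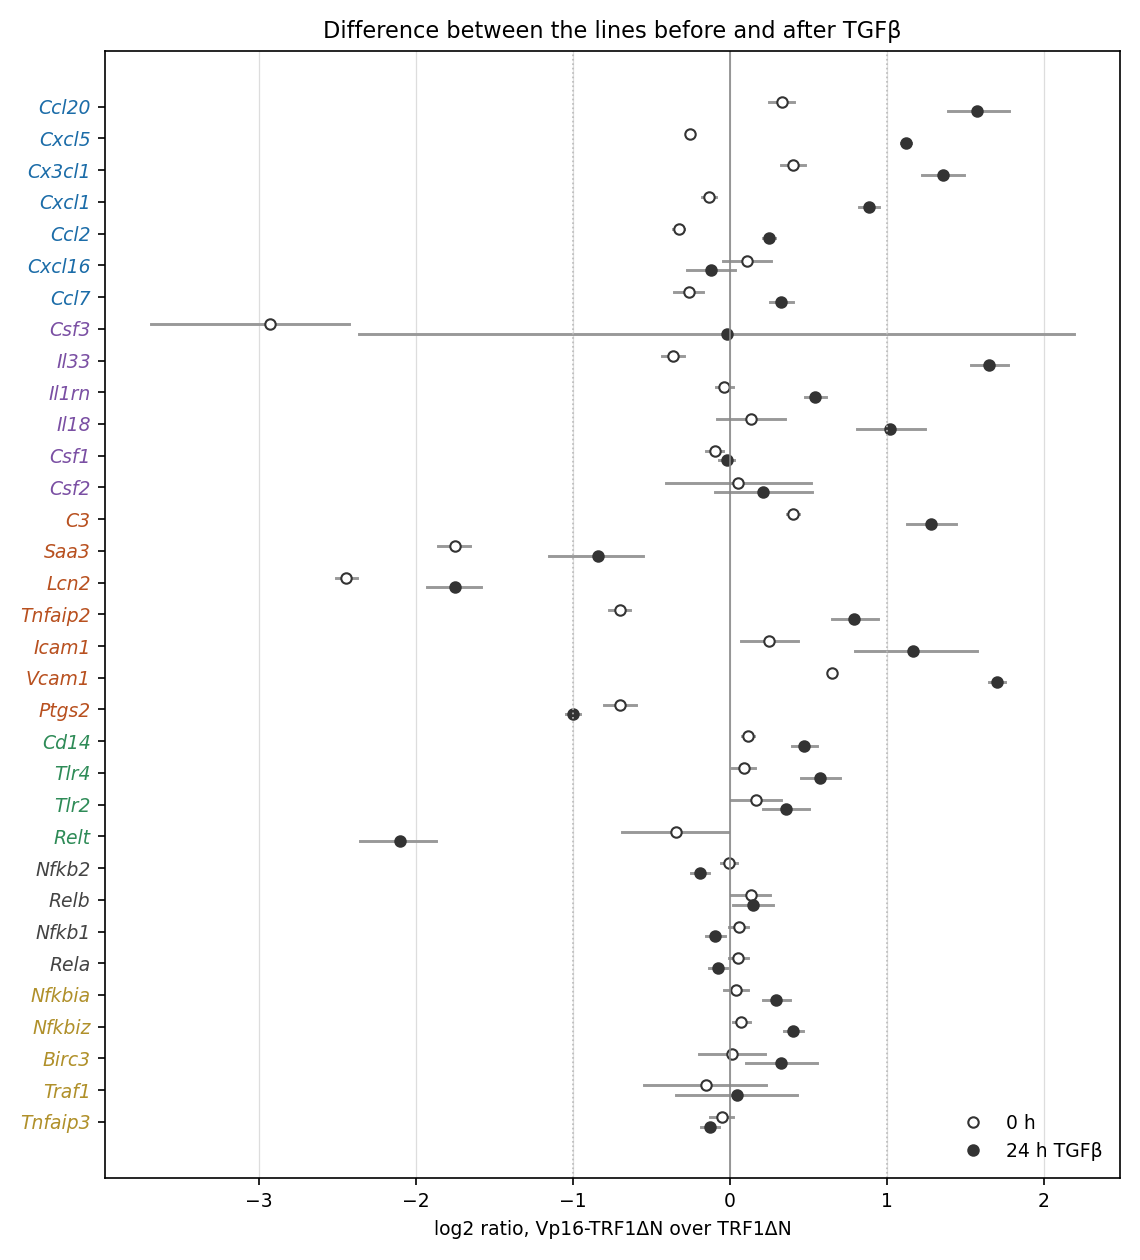
Log2 ratio of Vp16-TRF1ΔN over TRF1ΔN for the 33 members whose mean reached 1 CPM, 1 row per gene, open circles at 0 h and filled circles at 24 h with TGFβ. Bars are 95% counting intervals from 1 library per group, and dotted lines mark a 2-fold difference. Most open circles lie between the dotted lines, while the filled circles of 8 genes lie at or beyond the right one, Vcam1 farthest.

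The average difference between the lines passed no threshold with edgeR's quasi-likelihood test: 0 of 14305 genes (0%) and 0 of 38 members were called, with 1779 genes and 13 members at an unadjusted p under 0.05. DESeq2 called 47 of 13026 genes (0.361%) and 4 of 37 members (10.8%), C3 higher in Vp16-TRF1ΔN cells and Saa3, Lcn2 and Ptgs2 lower. For Lcn2 the average difference was -2.13 ± 0.18 in log2 (adjusted p = 0.235 with edgeR, 2.41e-23 with DESeq2).

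The TGFβ response itself differed in size between the lines in these libraries, with no test. Subtracting the log2 response of the TRF1ΔN line from that of the Vp16-TRF1ΔN line, 7 of 33 members came out at least 2-fold higher (21.2%, beside 1.81% of genes), namely Cxcl1, Cxcl5, Ccl20, Tnfaip2, Vcam1, Il33 and Csf3. Relt alone was lower (3.03%, beside 0.926%). Csf3 entered the count only through its untreated TRF1ΔN library, which carried it past the level filter. The differences were 2.91 for Csf3 (95% counting interval 1.21 to 4.61), 2.01 for Il33 (1.88 to 2.15), 1.496 for Tnfaip2 (1.34 to 1.65), 1.37 for Cxcl5 (1.34 to 1.41) and -1.75 for Relt (-2.15 to -1.35). For Tnfaip2 the lines changed order, 1.63-fold lower in Vp16-TRF1ΔN cells at 0 h and 1.74-fold higher at 24 h.

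**Figure D3:**
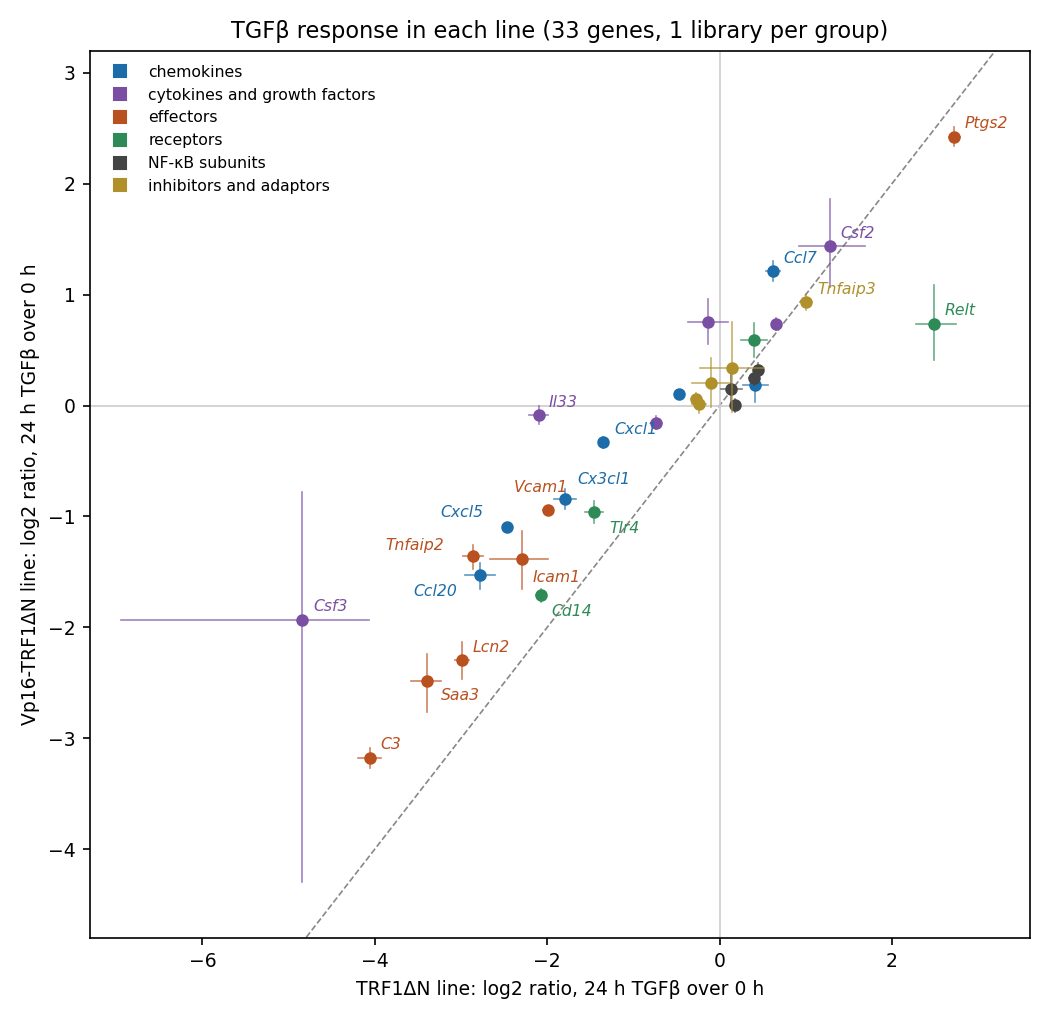
Log2 ratio of 24 h with TGFβ over 0 h in the TRF1ΔN line (horizontal) and in the Vp16-TRF1ΔN line (vertical) for the 33 members whose mean reached 1 CPM, coloured by role. Bars are 95% counting intervals from 1 library per group, and the dashed line marks equal responses. The 14 genes counted as lower in TRF1ΔN cells all lie above the dashed line, Il33 and Csf3 far from it.

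All 14 members counted as lower in the TRF1ΔN line were lowered less in the Vp16-TRF1ΔN line, with a median difference of 0.98 on the log2 scale. Choosing by the TRF1ΔN pair favours such a direction, and 962 of 1285 genes so chosen (74.9%) showed it, with a median difference of 0.37. Chosen instead by the Vp16-TRF1ΔN pair, 9 of 9 members and 639 of 1071 genes (59.7%) showed it, with medians of 0.91 and 0.14. All 9 members are among the 14, and 962 of the 1071 genes are among the 1285. The second choice uses the same 4 libraries, so it is not independent of the first. Smaller changes in the Vp16-TRF1ΔN line were not limited to genes that fell. Of those counted as higher in the TRF1ΔN line, 822 of 989 genes (83.1%) and 3 of 4 members rose less in the Vp16-TRF1ΔN line. The median shortfalls were 0.32 and 0.19 on the log2 scale, and this choice too favours that direction. Of the 14 members, Csf3, Lcn2 and Saa3 were already 8.14-fold, 5.44-fold and 3.37-fold lower in the Vp16-TRF1ΔN line at 0 h. Csf3 also had only 5 and 4 counts in the 24 h libraries, close to the detection floor in both lines. The part of starting level and floor in these differences was not tested. The 9 members lower in both lines remained below their 0 h level in the Vp16-TRF1ΔN line, from 2.14-fold for Cxcl5 to 9.05-fold for C3. Of the 11 members that rose, Relt had a response difference of -1.75 and Ccl7 of 0.59, and the remaining 9 lay between -0.30 (Ptgs2) and 0.19 (Tlr2).

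**Figure D4:**
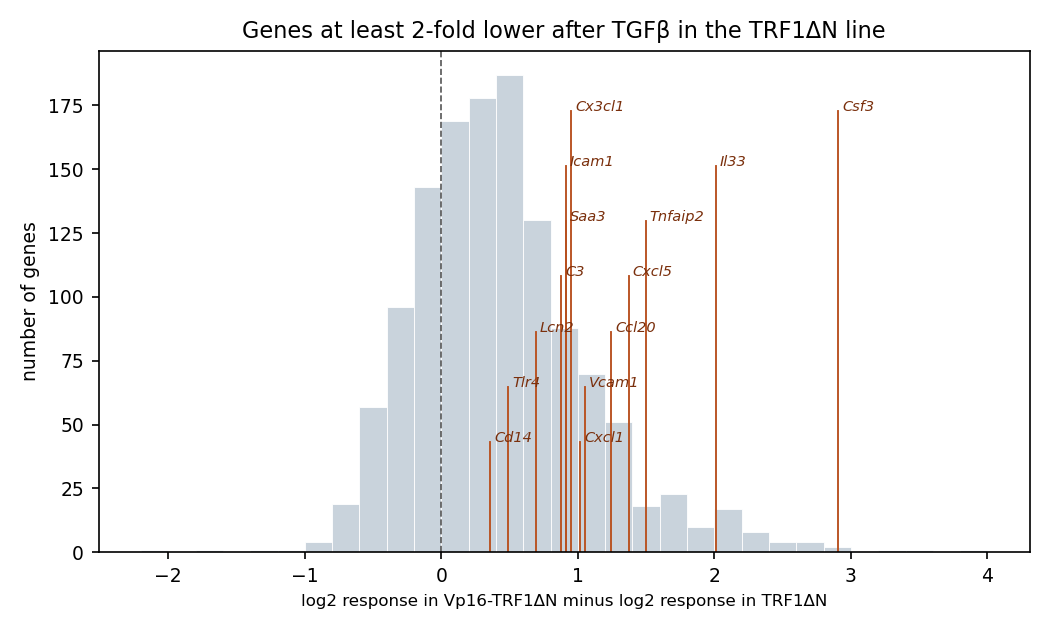
Number of genes (vertical axis) by the difference between the log2 TGFβ responses of the lines, Vp16-TRF1ΔN minus TRF1ΔN (horizontal axis), among the 1285 genes at least 2-fold lower after TGFβ in the TRF1ΔN line. Red lines of arbitrary height mark the 14 members. All 14 lie to the right of the dashed line at 0, from Cd14 at 0.36 to Csf3 at 2.91. Csf3 had 5 and 4 counts in the 24 h libraries, close to the detection floor.

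NF-κB binds DNA at κB sites, and the letters of a κB consensus were looked for on both strands in the 300 bases around each RefSeq start, 250 before and 50 after (GRCm38.p6). A promoter was found for 28 members, and 10 of them (35.7%) held a match, against 1388 of 27025 genes (5.14%). The members were listed as NF-κB inflammatory genes, so the higher share may follow from that choice and is not a test. Matches that overlap were merged. Among members that fell with TGFβ and had a promoter, 1 of 7 held a match, Ccl20, among those that rose 4 of 9, Csf1, Il6, Tlr2 and Tnfaip3, and among those that did not pass 5 of 11, Cxcl1, Cxcl2, Cxcl10, Nfkb2 and Nfkbia. This split depends on the cutoff. Cxcl1 and Cxcl2 had negative changes just short of it (adjusted p = 0.0535 and 0.0517, edgeR), and DESeq2 called Cxcl1 lower but not Cxcl2. The stretches of 8 of these 10 promoters are printed as chosen examples, 5′ to 3′ on the strand of the gene, with the match in capitals:
Cxcl1, chr5:90891149-90891209, plus strand: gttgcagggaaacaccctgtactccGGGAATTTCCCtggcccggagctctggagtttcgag
Cxcl2, chr5:90903777-90903837, plus strand: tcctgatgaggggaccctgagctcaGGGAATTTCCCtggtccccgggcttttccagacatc
Ccl20, chr1:83116661-83116720, plus strand: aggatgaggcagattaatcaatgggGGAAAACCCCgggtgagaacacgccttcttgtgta
Nfkbia, chr12:55492648-55492701, minus strand: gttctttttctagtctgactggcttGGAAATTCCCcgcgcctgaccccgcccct
Tnfaip3, chr10:19015411-19015447, minus strand: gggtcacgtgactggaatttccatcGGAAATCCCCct
Csf1, chr3:107760589-107760648, minus strand: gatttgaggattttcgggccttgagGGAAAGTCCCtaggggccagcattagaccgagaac
Il6, chr5:30013045-30013104, plus strand: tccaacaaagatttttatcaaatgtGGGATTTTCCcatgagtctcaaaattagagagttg
Tlr2, chr3:83841746-83841806, minus strand: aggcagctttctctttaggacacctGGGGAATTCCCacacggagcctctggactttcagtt
Cxcl1 and Cxcl2 hold the same 11 letters, GGGAATTTCCC, and did not pass with edgeR, while Ccl20 fell. The changes of Cxcl1 and Cxcl2 were also negative, so they are not set apart from Ccl20 by direction. Nfkbia, with a match 29 to 20 bases before its start, did not pass. Tnfaip3, with a match 12 to 3 bases before a RefSeq start, rose. That stretch lies inside the annotated Tnfaip3 gene (chr10:19000910-19015657), which has 2 promoters among those searched. A match is a description of letters and no evidence of binding. The members Nfkb1, Relb, Cd14, Ccl7, Ccl2, Nfkbiz, Cxcl5, Cxcl16, Vcam1, Csf3 and Tlr4 had no entry.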

How the data were processed

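Ribosomal RNA was depleted from total RNA before sequencing. Per the submitters' processing notes, reads were checked with FastQC, aligned to mm10 with STAR, counted per gene with HTSeq and normalised with DESeq2. The sources used here give no version, annotation release or strand setting. The authors' deposited counts were analysed, and their deposited log2 values served as a check (member ratios within 0.218 log2, 33 members). Rows of the constructs stayed out of library sizes.

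Counts were scaled by TMM and fitted with edgeR 4.0.16 in R 4.3.3 as line plus TGFβ (14305 genes passing filterByExpr, 1 residual and 3.39 prior degrees of freedom, biological coefficient of variation 0.0931). Tests were two-sided with Benjamini-Hochberg adjustment. The SE is the size of the change over the root of F. DESeq2 1.42.0 was the alternative. Pair ratios used a prior count of 2 for log2 values and exact 95% conditional intervals, and differences of responses used Poisson variances. All p-values rest on how far these 4 libraries depart from additive effects of line and TGFβ, with information shared across genes. They measure no spread between replicate cultures. Gene symbols, positions and exon lengths are from GENCODE, and promoters from RefSeq.

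Genes named were members at 1 CPM or more that were called or counted, other members by range, and from each pathway list up to 3 called genes each way. The members and lists were chosen with earlier results of these data known. Without a known strand setting, reads of a member and of a gene overlapping it on the opposite strand cannot be told apart, which touches Cxcl10, Cxcl16, Tnfaip2, Nfkb2, Icam1, Vcam1, Il1a and Csf2.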

Additional observations from a re-analysis of the deposited data

Results flagged for a closer look

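The TGFβ log2 ratios of Ccl2 and Nfkbiz pointed in opposite directions in the lines. For Ccl2 the ratio was -0.48 in the TRF1ΔN line and 0.10 in the Vp16-TRF1ΔN line. For Nfkbiz it was -0.27 and 0.060. Other members with opposite directions were Il18 (-0.14 and 0.75), Birc3 (-0.10 and 0.20) and Nfkbia (-0.24 and 0.016). Cxcl10, below 1 CPM on average, had 0.44 and -0.52. Each value comes from 1 pair of libraries, and the differences were not tested.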

How the results depend on the processing

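No separate analysis paired by replicate number was possible because each group has 1 library and the groups share fewer than 2 replicate numbers. The additive fit already compares 24 h with 0 h within each line, with the line as a term. Leaving out a library leaves the fit no residual degrees of freedom, so each gene then has only the ratio of the remaining pair, as given for the lines. The counts of members called for TGFβ, 11 higher and 12 lower, stayed within 1.5 times under DESeq2's size factors, no low-count filter, TMM from the filtered genes (added after seeing the data), mitochondrially encoded genes left out, a mean of at least 5 CPM, and DESeq2. The share of all genes called for TGFβ was 48.5% with edgeR, 34.2% without the low-count filter and 31.5% with DESeq2. Beside these, 60.5%, 69.2% and 57.9% of members were called, so the distance from the background depended on the tool and filter. Without the filter 16 members were called lower. The calls of Tlr2, Nfkb1 and Il6 were lost with DESeq2, which added Cxcl1 and Il1rn. Cxcl1 and Cxcl2 passed without the low-count filter and without mitochondrially encoded genes. The average difference between the lines called 1 member higher and 4 lower without the low-count filter, 12.8% of 39 members. Beside them 109 of 21971 genes were called (0.496%), against 0 genes with the filter. With DESeq2 it called 1 member higher and 3 lower, 10.8% of 37 members beside 0.361% of 13026 genes. The average line difference of Tnfaip2 was 0.041 with DESeq2 and -0.0027 with edgeR. The cause was not tested.

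A 1.5-fold rule counted 8 members higher with TGFβ in the Vp16-TRF1ΔN line against 3, 1 higher and 5 lower between the lines at 0 h against 0 and 3, 4 lower at 24 h against 2, and 14 with a higher response difference against 7. The share of all genes that pass the 1.5-fold rule is not given here. These larger counts thus say nothing about members beside other genes. Scaling by total counts moved the median of all genes to -0.12 (TRF1ΔN) and -0.09 (Vp16-TRF1ΔN) on the log2 scale for TGFβ. Each group has 1 library, so the spread between cultures was not measured, and Csf3, Il6, Tnf and Cxcl2 rest on few counts.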
